A study of Mus musculus with 2 samples.

Results

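The genes of complement, coagulation and fibrinolysis were examined in the aortic wall of apoE-/- mice, as a list of 39 genes given by name: 19 of complement and 20 of coagulation and fibrinolysis. All 39 were found among the gene spots of the array by their current symbol, on 59 probes, and 37 of them were among the 22811 genes bright enough to compare. Mice without apolipoprotein E carry high blood cholesterol and develop atherosclerosis, first where the aorta bends. The atherosclerosis-prone segment, called arch below, ran from the aortic root through the arch to 2 mm into the thoracic aorta. The next 6 mm of vessel, which resist the disease, made up the other segment, called thoracic. Both came from the same kind of animal, apoE-/- mice aged 16 weeks (3 males and 3 females), with no treatment, no wild-type group and no other age. The vessels had been perfused with Triton X-100 to strip the endothelium, and the study was aimed at the smooth muscle cells that remained.

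The extracts of all 6 mice went into 1 pool for each segment. Both pools were labelled and put on 2 arrays: arch in Cy3 with thoracic in Cy5 on array 1, and arch in Cy5 with thoracic in Cy3 on array 2. Both arrays repeat 1 measurement of the same pools, so they count as 1 replicate. Each ± is therefore a technical SD over the pair of arrays (n = 2 arrays), the spread between mice is unknown, and no p-value is given. Ratios are log2 values of arch over thoracic, so a positive ratio means a higher signal in arch. Signals are normalized intensities of 1 probe, and those of a gene are compared only within its probe. Where the arch and thoracic signals of a gene are said not to overlap, this describes technical repeats of the same pools. The share of all genes without overlap was not counted, so such a statement adds no support to a difference. Marker lists are also given as sums over the probes of their genes, in which bright probes weigh most, so each sum is set beside its value without the gene that differs most. A gene was called at 2-fold when its mean ratio reached 2-fold and each array reached 1.5-fold in that direction, and at 1.5-fold when the mean reached 1.5-fold and each array 1.2-fold. In a pool of whole tissue, fewer cells of a type and less RNA per cell cannot be told apart.

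Complement is a cascade of plasma proteases that is started by antibody and debris (the classical pathway, through C1q), by sugars (the lectin pathway, through the MASP proteases) or spontaneously (the alternative pathway, through factors B and D). All 3 routes meet at C3, whose cleavage marks surfaces for uptake and leads on to the membrane attack complex. Coagulation starts when tissue factor meets factor VII and ends when thrombin turns fibrinogen into fibrin, which plasmin dissolves again in fibrinolysis. The liver makes most of the circulating components, while macrophages, fibroblasts, smooth muscle and endothelium make some of them locally, and tissue factor is a known product of atherosclerotic lesions.

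On these arrays the arch RNA was well above background at 82.1% of gene spots on array 1 and 78.0% on array 2, and the thoracic RNA at 76.5% and 82.6%. Over all genes compared the ratio had a median of -0.01 and a median SD between arrays of 0.06, with a 95th percentile of 0.18. When the dye swap was left unturned, so that red was set over green, 0 of 22811 genes met either rule. Of the 37 genes of the list, 36 were well above background in both pools throughout, and none had a saturated probe.

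Most of the list was close to even between the segments, and 3 genes stood out, all higher in arch. They were Thbd (thrombomodulin, the surface protein that turns thrombin into an anticoagulant enzyme), C3 (the central complement component) and F2r (the thrombin receptor PAR1). Thbd and C3 met the 2-fold rule, 2 of 37 genes, against 0.473% of all genes compared. At 1.5-fold F2r joined them, which makes 3 of 37 genes (8.11%) against 1.4% of all genes. In the opposite direction 0 of 37 genes met the 2-fold rule, where 0.145% of all genes did, and 0 met the 1.5-fold rule, where 0.456% did. The other 34 genes had mean ratios between -0.41 (F13a1) and 0.55 (C4b).

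The middle of the list lay where that of all genes lay, with a median ratio of -0.01 for each and a mean of 0.07 for the list. On both arrays 15 of the 37 genes lay above 0 (40.5%, against 32.4% of all genes) and 13 lay below 0 (35.1%, against 35.2%), while 9 changed sign between the arrays. Ratios within 0.3 of 0 were found for 27 of the 37 genes, or 73%, against 92% of all genes. Between the arrays the 37 genes had a median SD of 0.06, the same as all genes at this precision, and the highest was that of Masp2 at 0.21. The 19 complement genes had a median of 0.01 and the 18 coagulation and fibrinolysis genes one of -0.03.

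**Figure D1:**
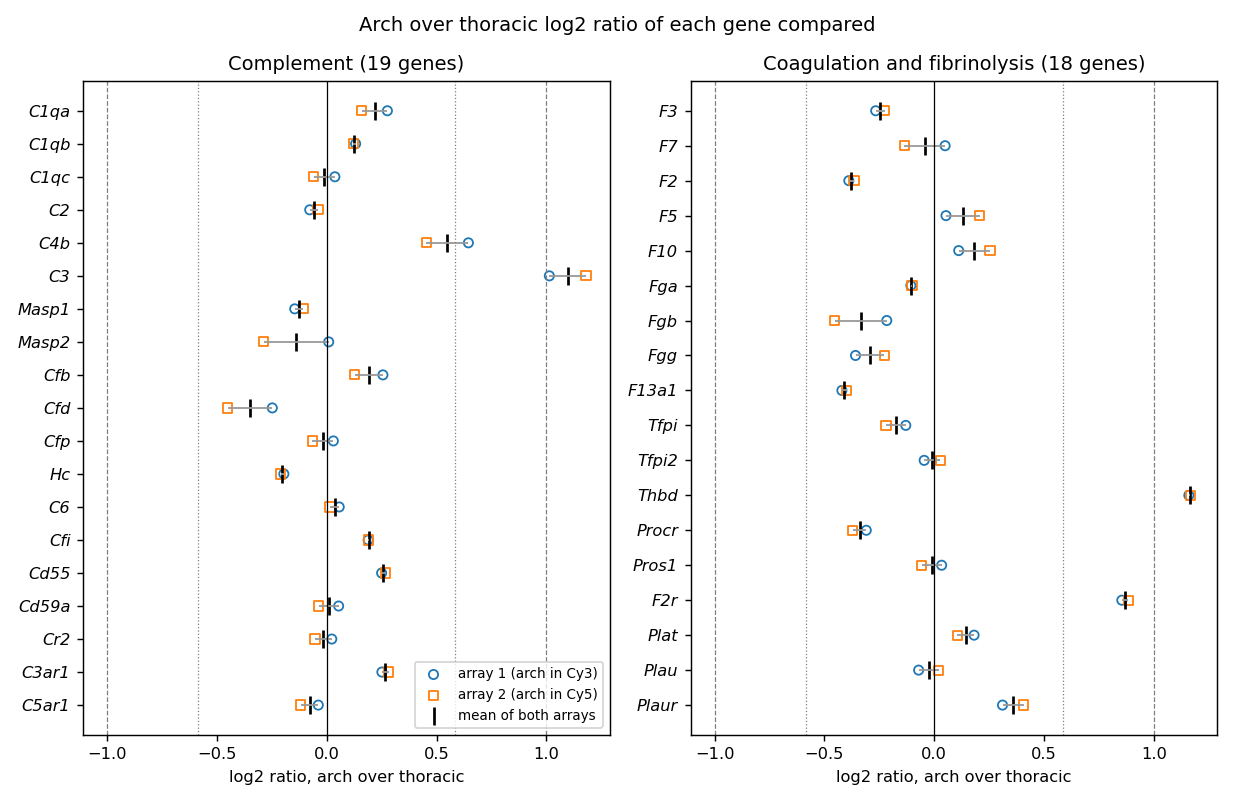
Log2 ratio of arch over thoracic (x axis) for the 37 genes compared, in complement (left) and in coagulation and fibrinolysis (right). Circles are array 1, squares array 2 and black ticks their mean, with dotted lines at 1.5-fold and dashed lines at 2-fold. C3 and Thbd lie past the 2-fold line at 1.10 and 1.16, F2r lies at 0.87, and the remaining genes lie between -0.41 and 0.55.

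C3 had the highest ratio of the complement genes. Its probe had signals of 36035 and 37495 in arch on arrays 1 and 2, against 17846 and 16541 in thoracic. The lower arch value was above the higher thoracic value, and C3 was 2.14-fold higher in arch (1.10 ± 0.12), at rank 84 from the top of all 22811 genes. A further C3 probe, not far above background, read 149.2 and 134.7 in arch, against 127.4 and 115.3 in thoracic, a ratio of 0.23 ± 0.00. Both probes carry the same accession and pointed the same way, but they differ by 0.87 on the log2 scale, so the size of the C3 difference depends on the probe. The offset used in background correction pulls ratios of dim probes towards 0, and its part in this gap was not tested. When the median over probes stood for the gene, C3 was at 0.66, and when arrays were centred on their median in place of loess it was at 0.89, under the 2-fold rule in both cases.

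Promoters of the genes that met a rule were read from RefSeq (assembly GRCm38.p6, 250 bases before to 50 after the annotated start). The table holds 29 of the 39 genes and, of those called, C3 and F2r, which are printed here so that the called genes can be seen beside their values. They lie at chr17:57228087-57228386 and chr13:95618417-95618716, both on the minus strand, and are written 5′ to 3′ with matched motifs in capitals.
C3: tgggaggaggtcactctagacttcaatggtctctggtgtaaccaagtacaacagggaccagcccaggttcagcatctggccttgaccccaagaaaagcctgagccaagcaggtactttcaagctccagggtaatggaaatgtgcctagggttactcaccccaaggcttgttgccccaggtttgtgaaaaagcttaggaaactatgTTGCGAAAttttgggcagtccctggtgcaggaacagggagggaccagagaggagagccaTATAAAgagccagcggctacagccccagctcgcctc
F2r: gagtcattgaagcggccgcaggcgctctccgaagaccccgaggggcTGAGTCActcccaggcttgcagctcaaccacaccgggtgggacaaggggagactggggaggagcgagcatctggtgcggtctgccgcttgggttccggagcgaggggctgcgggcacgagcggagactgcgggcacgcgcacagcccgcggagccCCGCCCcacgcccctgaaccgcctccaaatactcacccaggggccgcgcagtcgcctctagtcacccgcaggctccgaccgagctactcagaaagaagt
The searched motifs were a TATA box (TATAAA), a GC box (GGGCGG), an AP-1 site (TGANTCA) and a C/EBP-like site (TTNCGNAA), on both strands. In C3 the capitals mark the C/EBP-like match at bases 206 to 213 and the TATA match at bases 265 to 270, counted from the first base printed. The TATA match of C3 starts 14 bases past the annotated start, not before it. In F2r they mark the AP-1 match at bases 47 to 53 and the GC box, read on the opposite strand, at bases 202 to 207. No matches overlap. Among 32851 promoters of this length 13.6% hold the TATA motif, 35.7% the GC box, 7.81% the AP-1 motif and 2.47% the C/EBP-like motif. The windows of C3 and F2r share no motif of these, and a match describes letters, not binding. The motifs were picked after the sequences had been seen.

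In the classical pathway the 3 chains of C1q, the recognition molecule, stayed close to even. C1qa read 1947 and 1700 in arch, against 1607 and 1523 in thoracic, which is 0.22 ± 0.08. C1qb was at 0.13 ± 0.01 and C1qc at -0.01 ± 0.07, with C1qc the only one that changed sign between arrays. The genes of these chains are direct neighbours on mouse chromosome 4, with 0 protein-coding genes between them in RefSeq, and macrophages are a known source of all 3.

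C4b, the mouse C4 that is cleaved by the C1 complex, came nearest to a call among the remaining genes. Its signals were 1165 and 1064 in arch, against 745 and 777 in thoracic, without overlap. That is 1.46-fold higher in arch (0.55 ± 0.14), with 0.65 on array 1 and 0.45 on array 2. C4b has a near-identical copy, C4a, and the probes may share transcripts, so the C4b value is uncertain. The probe named for C4a was dim and even (-0.02 ± 0.06). C2, the protease that joins C4 in the C3 convertase, was at -0.06 ± 0.03.

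The lectin proteases were dim and showed no clear direction. Masp1 was at -0.13 ± 0.03 on its brighter probe and 0.06 on the other. Masp2 read 157 and 153 in arch, against 156 and 187 in thoracic, on its brightest probe. The ratio of that probe, -0.14 ± 0.21, rests on array 2 alone, as array 1 gave 0.01. A further Masp2 probe did the reverse, at -0.13 on array 1 and -0.0017 on array 2.

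In the alternative pathway the proteases pointed in different directions. Cfd, factor D or adipsin, which fat cells make in quantity, read 18611 and 17143 in arch, against 22099 and 23431 in thoracic. The arch values were below both thoracic values, at -0.35 ± 0.14, short of either rule. With arrays centred on their median Cfd stood at -0.55. The 8 adipocyte markers compared had a median ratio of 0.02, which was -0.11 with that centring and -0.07 without saturated probes. Retn (-0.47), Cidec (-0.20) and Adipoq (-0.16) had ratios of the same sign as Cfd. Lpl (0.95) was called higher in arch, and Pck1 (0.37), Plin1 (0.11), Fabp4 (0.02) and Lep (0.02) also had means above 0. The unsaturated adipocyte probes summed to 15000 and 14393 in arch, against 13502 and 13253 in thoracic, and without Lpl to 11914 and 11684 in arch, against 12004 and 11765 in thoracic. The part of fat cells in the Cfd value was not tested. Cfb, factor B, the partner that factor D cleaves, read 4051 and 3698 in arch, against 3393 and 3386 in thoracic, or 0.19 ± 0.09. Cfb and C2 are related proteases and direct neighbours on chromosome 17. Cfp, properdin, which stabilises the alternative convertase, was at -0.02 ± 0.07.

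The late components were dim and close to even. Hc, which encodes C5, read 109 and 133 in arch, against 125 and 154 in thoracic. Its groups overlap across arrays while each array has arch lower, at -0.20 ± 0.01. C6, a subunit of the membrane attack complex, was at 0.04 ± 0.03.

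Among the inhibitors and receptors of complement, none met a rule. Cd55, which speeds the decay of the convertases on the cell surface, read 395 and 412 in arch, against 332 and 342 in thoracic. Its groups do not overlap, and both of its probes gave 0.26. Cfi, the protease that inactivates C3b and C4b, was at 0.19 ± 0.00 and Cd59a, which blocks the attack complex, at 0.01 ± 0.06. C3ar1, the receptor of the C3a fragment, read 182 and 175 in arch, against 153 and 144 in thoracic, or 0.27 ± 0.02, with 0.11 on its further probe. C5ar1, the C5a receptor, was at -0.08 ± 0.06 and Cr2, the receptor of C3d on B cells, at -0.02 ± 0.05. The probes of Cfi, C3ar1 and C5ar1 were dim, and their ratios moved with the treatment of background. In the deposited log ratios they were 0.43, 0.41 and -0.31. Without background subtraction they were 0.14, 0.23 and -0.06.

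**Figure D2:**
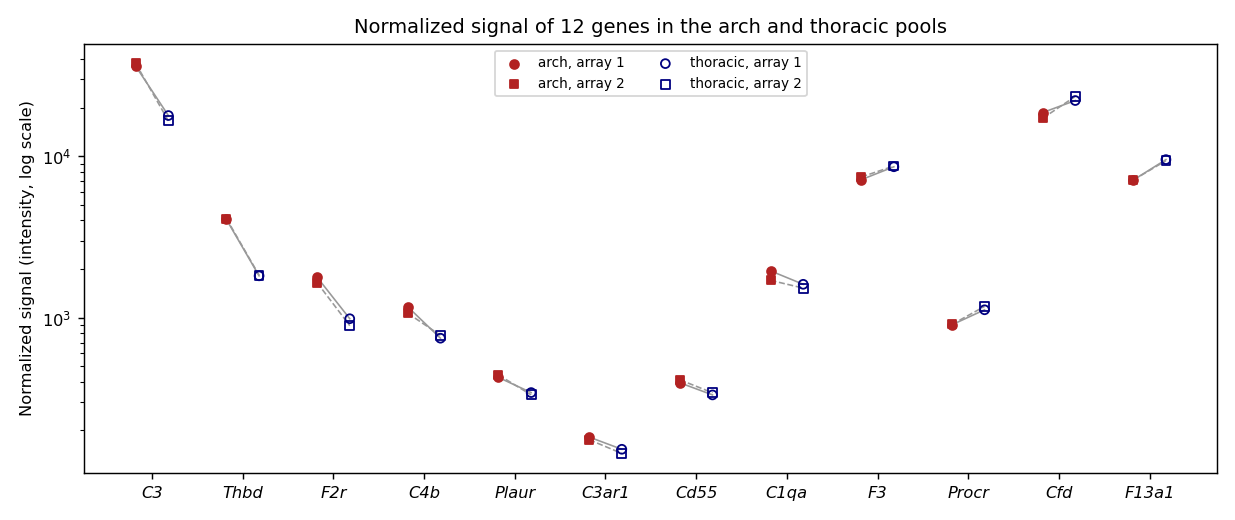
Normalized signal (y axis, log scale) of 12 genes in arch (filled red) and thoracic (open blue), with circles for array 1 and squares for array 2 and lines joining the pools on 1 array. Thbd, C3 and F2r are higher in arch by 0.87 to 1.16 on the log2 scale, while F3, Procr, Cfd and F13a1 slope the other way, at -0.41 to -0.25.

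Coagulation begins with tissue factor, F3, which was measured well above background in both segments. It read 7144 and 7431 in arch, against 8594 and 8683 in thoracic. F3 was thus lower in arch without overlap (-0.25 ± 0.03, with -0.30 on a further probe), though short of either rule. Its partner F7, the protease that tissue factor activates, was at -0.04 ± 0.13 and changed sign between the arrays.

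The proteases and cofactors downstream were at or near background. F2, prothrombin, read 60.3 and 60.2 in arch, where it was not well above background on either array, against 79.0 and 77.5 in thoracic. F2 was therefore at least 1.29-fold higher in thoracic, a bound set against the dimmest signal that counts as measured or the probe's own signal, whichever is higher, and its measured ratio was -0.38 ± 0.02. F10, the protease that makes thrombin, was at 0.18 ± 0.10 and F5, its cofactor, at 0.13 ± 0.11, both dim. F8, the cofactor of factor IX, was well above background only in arch on array 2 and was not compared.

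All 4 genes of fibrin and its crosslinking were lower in arch on both arrays, where 35.2% of all genes compared were. None of them was called. F13a1, the transglutaminase subunit that crosslinks fibrin and is also made by tissue macrophages, read 7111 and 7113 in arch, against 9517 and 9379 in thoracic. It was 1.33-fold higher in thoracic (-0.41 ± 0.02), the lowest ratio of the list, and the groups do not overlap. The fibrinogen chains, products of the liver, were dim: Fgb read 84.5 and 73.1 in arch, against 98.1 and 100.1 in thoracic (-0.33 ± 0.17). Fgg read 69.3 and 70.7 in arch, against 88.9 and 82.7 in thoracic (-0.29 ± 0.09). The third chain, Fga, was at -0.10 ± 0.00. The chains are neighbours on chromosome 3 with 0 protein-coding genes between them.

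The ratios of these dim probes moved with the treatment of background. With an offset of 0 the ratio was -1.45 for F2, -0.79 for Fgb and -0.84 for Fgg, and in the deposited log ratios it was -1.89, -0.94 and -0.92. Without background subtraction the ratios were nearer to 0, at -0.25 for F2, -0.24 for Fgb and -0.23 for Fgg, so the bound given for F2 holds for the reported processing alone. With the offset of 0 and in the deposited ratios F2 met the 2-fold rule and all 3 genes the 1.5-fold rule, higher in thoracic, against 0 as reported. The hepatocyte markers, of which 6 of 8 could be compared, had a median of -0.08: Alb, albumin, read 95.2 and 82.1 in arch, against 138 and 134 in thoracic (-0.62 ± 0.12). Ahsg, another plasma protein of the liver, went the other way at 1.29 ± 0.03. The summed signal of the 6 hepatocyte markers was 2360 and 2528 in arch, against 2088 and 2098 in thoracic, which rests on Ahsg. Without it the other 5 summed to 1653 and 1775 in arch, against 1803 and 1787 in thoracic. The part of liver-derived or blood-borne RNA in the fibrinogen and prothrombin values was not tested.

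The anticoagulant genes pointed apart, with Thbd high and Procr low in arch, although their products act together. Thbd read 4052 and 4106 in arch, against 1814 and 1830 in thoracic. The groups do not overlap, and Thbd was 2.24-fold higher in arch (1.16 ± 0.00), at rank 71 of 22811 genes. Procr, the receptor that presents protein C to the thrombin and thrombomodulin complex, read 902 and 907 in arch, against 1117 and 1172 in thoracic. It was 1.27-fold higher in thoracic (-0.34 ± 0.04), without overlap and without meeting a rule. Pros1, protein S, the cofactor of activated protein C, was even at -0.01 ± 0.06. Tfpi, the inhibitor of tissue factor, was between -0.17 and -0.03 on the 3 of its probes that could be compared, and Tfpi2, a related inhibitor, was at -0.01 ± 0.05.

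Of the receptors that thrombin and related proteases cleave, F2r met the 1.5-fold rule. It read 1778 and 1645 in arch, against 984 and 891 in thoracic, without overlap. That is 1.83-fold higher in arch (0.87 ± 0.02), at rank 150 of all genes. Its direct neighbour on chromosome 13, F2rl1 (the receptor PAR2), was not well above background in either pool on either array and was not compared.

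Thbd is a well-known product of endothelium, and the wall had been treated to remove that layer. All 13 endothelial markers on the array were bright enough to compare, and 4 met the 1.5-fold rule, higher in arch: Kdr (1.24 ± 0.04), Vwf (0.87 ± 0.04), Emcn (0.78 ± 0.03) and Ptprb (0.71 ± 0.11). Over all 13 the median was 0.36 (0.22 on array 2 alone). Their summed signal was 3203 and 3149 in arch, against 2155 and 2122 in thoracic, and without Kdr 2618 and 2535 in arch, against 1902 and 1866 in thoracic. Procr, also an endothelial gene but not among these 13 markers, was at -0.34 and met no rule. Markers nearest to even were Tie1 (0.05), Cldn5 (0.08), Nos3 (0.09) and Pecam1 (0.09). The part of endothelial cells in the Thbd, F2r and Procr values was not tested.

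Macrophage markers also differed between the segments. Of 14 compared, 4 met the 2-fold rule, higher in arch, and the median was 0.31, or 0.15 with arrays centred on their median and 0.19 on array 2 alone. The unsaturated probes summed to 28553 and 28316 in arch, against 13320 and 13398 in thoracic, and without Cd5l to 18420 and 18415 in arch, against 12760 and 12779 in thoracic. C3, the C1q chains, C3ar1, Cfp and F13a1 are among the genes that macrophages express. The macrophage markers that met the 2-fold rule were Cd5l (4.09), Gpnmb (2.34), Lgals3 (1.65) and Mpeg1 (1.33, with 0.36 on a further probe). The macrophage list ran from -0.27 (Cd163) through Adgre1 (-0.06), Mrc1 (0.01), Csf1r (0.07), Fcgr1 (0.27), Msr1 (0.38) and Cd68 (0.51) to Cd5l. The C1q chains, at -0.01 to 0.22, lay within the lower stretch of that range, and F13a1, at -0.41, lay below it. Adventitial fibroblast markers had a median of 0.32, or 0.18 with arrays centred on their median (8 compared, 2 higher in arch at 1.5-fold). All 6 mesothelial markers were higher in arch at 1.5-fold, with a median of 1.43 and sums of 6213 and 5907 in arch, against 2246 and 2172 in thoracic, or without Msln 2854 and 2778 in arch, against 1041 and 992 in thoracic. Heart muscle markers had a median of 1.06, with 4 of 7 called. Of smooth muscle markers 0 of 10 were called, with a median of 0.17 that was -0.04 with arrays centred on their median and -0.03 on array 2 alone. The part of these cell types in the C3, C4b, Thbd and F2r values was not tested.

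Few markers of blood cells were called. Of 9 platelet markers 1 was called, Ppbp at 0.97, and the median was 0.19, with Gp9 at 0.56, Treml1 at 0.53 and Pf4 at -0.44. That median was 0.48 with an offset of 0, 0.55 in the deposited log ratios and 0.13 without background subtraction. The 9 markers summed to 10367 and 10267 in arch, against 12691 and 12837 in thoracic, which rests on Pf4. Without it the other 8 summed to 1782 and 1810 in arch, against 1247 and 1221 in thoracic. B cell, T cell and neutrophil markers had medians of -0.13, 0.00 and 0.32, with 0 called of 6, 6 and 4 compared. With no filter on dim probes the neutrophil median was 0.035.

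**Figure D3:**
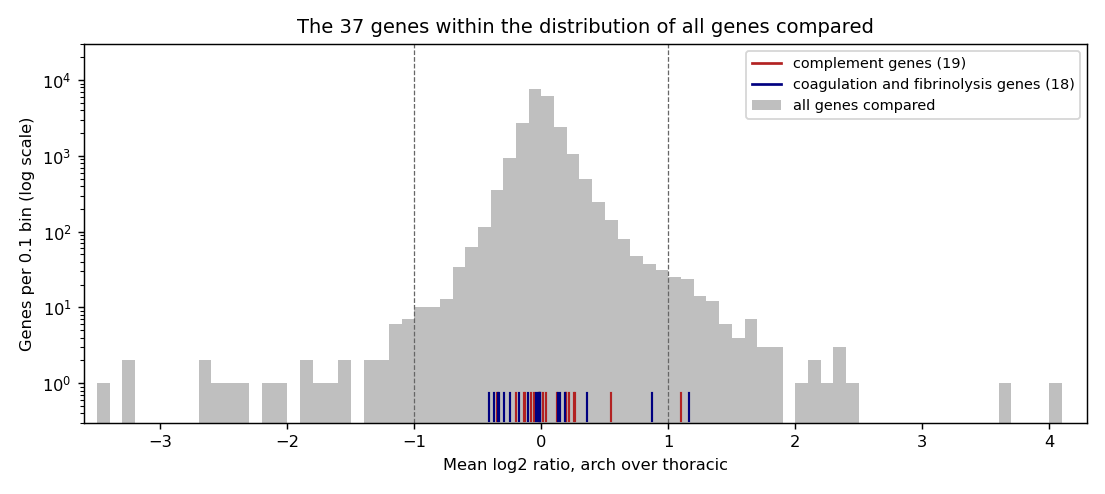
Number of genes (y axis, log scale) by mean log2 ratio of arch over thoracic (x axis, bins of 0.1) for all 22811 genes compared, in grey, with dashed lines at 2-fold. Short ticks mark the 19 complement genes (red) and the 18 coagulation and fibrinolysis genes (blue), most of which lie within the central peak while C3, Thbd and F2r lie in the right-hand tail.

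In fibrinolysis the urokinase receptor was the gene furthest from even. Plaur, which holds urokinase on the cell surface, read 426 and 441 in arch, against 343 and 332 in thoracic. It was 1.28-fold higher in arch (0.36 ± 0.07), without overlap, with 0.19 on its further probe. Plat, tissue plasminogen activator, was at 0.14 ± 0.05 and 0.29 on its probes. Plau, urokinase itself, was at -0.03 ± 0.06.

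Several probes of a gene gave like values with 1 exception. Of the 13 genes with more than 1 probe compared, 12 had all probes within 0.2 of each other on the log2 scale, and C3 did not.

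**Figure D4:**
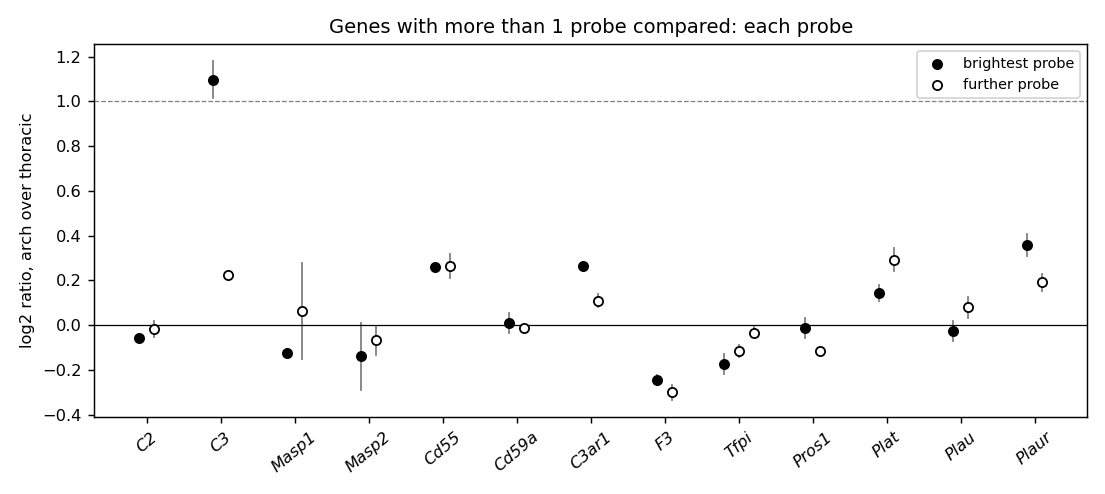
Log2 ratio of arch over thoracic (y axis) for each compared probe of the 13 genes that have several, with the brightest probe filled and further probes open, and bars spanning the 2 arrays. C3 is the only gene of the 13 whose probes lie clearly apart, at 1.10 and 0.23.

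A longer list of the same pathways, 69 genes outside the 39 named ones, was read for comparison. Of the 60 that could be compared, 4 were higher in arch and 2 higher in thoracic by the 1.5-fold rule, and the median ratio was -0.01. By the same rule 1.4% of all genes compared were higher in arch and 0.456% higher in thoracic. In complement 1 of 25 genes was higher in arch and 0 higher in thoracic, in coagulation 2 and 1 of 22, and in fibrinolysis 1 and 1 of 13.

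In complement the gene called was a sensor. Colec11, a soluble lectin that starts the lectin pathway, read 496 and 466 in arch, against 253 and 233 in thoracic (0.98 ± 0.02). Cd93 (0.48 ± 0.05, with 0.01 on a further probe), Colec12 (0.47 ± 0.10, with 0.57 on a further probe), Itgb2 (0.43 ± 0.10) and Serping1, the C1 inhibitor (0.37 ± 0.10), were short of the rule. The C1 proteases C1ra and C1s1 were at 0.25 ± 0.02 and 0.22 ± 0.07. Itgax was not called by its brightest probe (-0.17 ± 0.09), but a further probe gave 1.25, so its value depends on the probe.

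In coagulation Gas6, a vitamin K-dependent relative of protein S that binds the TAM receptors, read 35878 and 34029 in arch, against 17543 and 17025 in thoracic. It met the 2-fold rule (2.02-fold, 1.02 ± 0.02), narrowly, and did so in 7 of 10 alternatives. It was at 0.99 with an offset of 0, at 0.81 with median centring and at 0.9991 on array 2 alone. Pros1 itself was even. Vwf, which tethers platelets, read 454 and 427 in arch, against 253 and 229 in thoracic. Kng1, the kininogen of the contact system, read 71.2 and 73.3 in arch, against 127 and 122 in thoracic. It was 1.72-fold higher in thoracic (-0.78 ± 0.07) at signals close to background, and at -1.75 with an offset of 0. Proc, protein C, the target of Thbd and Procr, was dim and even (-0.03 ± 0.01).

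In fibrinolysis Lrp1, the receptor that clears plasminogen activators and their inhibitors, read 1560 and 1440 in arch, against 867 and 823 in thoracic (1.77-fold, 0.83 ± 0.03). Serpini1, neuroserpin, an inhibitor of Plat, read 731 and 728 in arch, against 1117 and 1078 in thoracic. It was 1.50-fold higher in thoracic (-0.59 ± 0.03), just past the rule. Serpine2, a protease inhibitor of the same family, was at -0.24 ± 0.01. Plg, plasminogen, gave 0.35 on array 1 and -0.17 on array 2.

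**Figure D5:**
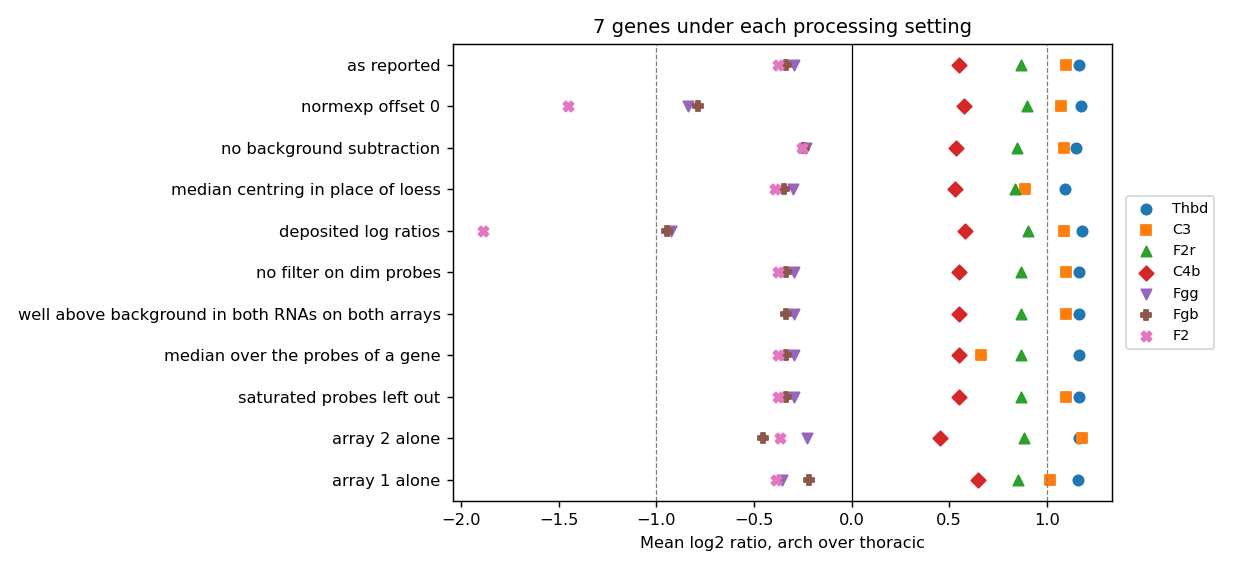
Mean log2 ratio of arch over thoracic (x axis) of 7 genes under the reported processing and 10 alternatives (y axis), with dashed lines at 2-fold. Thbd stays between 1.09 and 1.18 and F2r between 0.84 and 0.90, C3 drops below the line with median centring and with the median over probes, and F2, Fgb and Fgg move left with an offset of 0 and with the deposited log ratios.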

How the data were processed

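The deposited scanner tables hold intensity values (mean signal and local background median per channel, not normalized), written by Agilent's Feature Extraction software, whose version is 8.1.1.1 per the file headers and 9.1.1.1 per the submitters' processing notes. The deposited log10 ratios, per the file headers of processed red over green signal, were used as 1 alternative. The labels give RNA integrity numbers of 7.5 to 7.7 and 12 µl of extract pooled per mouse.

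Signals were corrected by normexp (offset 50) and loess with limma 3.58.1 in R 4.3.3. Control and outlier spots were left out, spots of a probe averaged, the sign of array 1 turned and the mean of both arrays taken. A probe needed 1 RNA well above background on both arrays, and each gene is given by its brightest probe of this kind. Signals per channel followed loess and Aquantile scaling. Symbols were updated through a RefSeq table (GRCm38.p6): of 41534 gene spots 21706 matched by accession, 5476 by symbol and 4672 by synonym. The offset pulls ratios of dim probes towards 0. The steps were tested on simulated data. Members and gene lists were chosen with earlier results of these data known. Every member is named, together with pathway genes past a rule and, as further examples, genes chosen after their values were seen. A few genes of these pathways are not reported here and were left out of the pathway counts.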

Additional observations from a re-analysis of the deposited data

How the results depend on the processing

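The calls were recomputed under 10 alternatives, and no called gene changed direction. Thbd met the 2-fold rule in all 10 (1.09 to 1.18), C3 in 8 and F2r the 1.5-fold rule in all 10 (0.84 to 0.90). Some alternatives could not move these genes. The other filters on dim probes and the removal of saturated probes returned the reported value for each of them. The median over probes did so for Thbd and F2r, which had 1 probe compared. Genes at 2-fold higher in arch numbered 1 in place of 2 with median centring and with the median over probes, where C3 was at 0.89 and 0.66. Higher in thoracic, 1 gene met the 2-fold rule and 3 the 1.5-fold rule with an offset of 0 and with the deposited log ratios, against 0 as reported. Those settings also call more of all genes: 2.58% and 2.94% at 1.5-fold higher in arch, against 1.4%, and 0.956% and 1.08% higher in thoracic, against 0.456%. C4b met the 1.5-fold rule on array 1 alone (0.65). The median of the coagulation and fibrinolysis genes was -0.03, and it was -0.0494 with an offset of 0, -0.0534 in the deposited log ratios, -0.0528 with the median over probes and -0.0795 to -0.0584 on a single array. Of the remaining pathway genes, 1 in place of 2 was higher in thoracic without background subtraction and on array 2 alone. No paired analysis was possible because both arrays hold the same 2 pools. The number of arrays limits precision, as does the small distance from background of dim probes such as F2, Fgb, Fgg and Kng1.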
